A study of Mus musculus with 2 samples.

Results

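The collagen genes were defined as the array rows annotated with a single gene symbol made of Col, a type number, the letter a and a chain number, such as Col1a1. These were 44 of the 22180 named genes, and where a gene had several rows the row with the highest mean signal over both arrays was used. Nasal mucosa of C57BL/6 mice aged 4 to 6 weeks was collected 3 days after papain, a plant cysteine protease, or after PBS, the saline vehicle, and its total RNA was measured on Affymetrix Mouse Gene 2.0 ST arrays. Each treatment was 1 array of pooled RNA. According to the submitters 4 samples made up a specimen, and it is not said whether that holds for each array. No replicate array was analysed, so no difference below has a test, a p-value or an error between animals, and 1 array per group sets the precision. The question addressed is how the collagen genes of the mucosa differed after exposure to the protease.

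Collagens are proteins whose chains wind in threes into a triple helix. The fibrillar collagens build the tensile fibres of connective tissue and bone, type IV collagen forms the network of basement membranes, and types II, IX, X and XI are characteristic of cartilage. In the nasal mucosa collagen lies in the lamina propria, the epithelial and vascular basement membranes and the walls of glands and nerves, next to the cartilage and turbinate bone on which the mucosa rests.

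Of the 44 collagen genes, 34 had a lower signal in the papain array than in the PBS array and 10 a higher one. The median log2 ratio of papain to PBS was -0.20, against -0.03 over all named genes, of which 54.4% had a ratio below 0. At the size rule used here, a difference of at least 1.5-fold, 6 collagen genes were lower, namely Col1a1, Col1a2, Col8a1, Col10a1, Col11a1 and Col11a2. The share of all named genes that was at least 1.5-fold lower was 4.34%, and the share at least 1.5-fold higher was 5.38%. Col6a5 was the 1 collagen gene at least 1.5-fold higher, and the other 37 lay within 1.5-fold. No collagen gene reached 2-fold in either direction, where 0.73% of all named genes were lower and 1.83% higher. Of the 31 collagen genes whose higher signal reached 6.29, the median signal of named genes, 6 lay past 1.5-fold on the lower side and 0 on the higher side. The shares of the 11691 named genes at that signal were 4.34% and 3.4%. At 2-fold the counts of these 31 genes were 0 and 0, against 0.385% and 1.59%. Col9a1 counts as lower by a ratio that rounds to 0.00, and between 33 and 34 genes had ratios below 0 under the 4 other scalings or row choices tried.

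Promoter sequences are shown for the collagen genes past 1.5-fold, because 3 short promoter motifs can be read in them. The 150 bases before the annotated start were taken from RefSeq promoters on GRCm38.p6, which held 35 of the 44 collagen genes, with no entry for Col1a1, Col2a1, Col4a3, Col5a2, Col9a3, Col12a1, Col14a1, Col22a1 and Col26a1. Capitals mark the CCAAT box (CCAAT or its complement ATTGG), the TATA box (TATAAA or TTTATA) and the GC box (GGGCGG or CCGCCC). Each sequence runs 5′ to 3′ along the gene's own strand.
Col1a2, chr6:4505468-4505617, plus strand: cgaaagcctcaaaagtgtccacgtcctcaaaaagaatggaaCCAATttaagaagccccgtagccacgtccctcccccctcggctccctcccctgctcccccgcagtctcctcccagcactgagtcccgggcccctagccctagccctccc
Col8a1, chr16:57754738-57754887, minus strand: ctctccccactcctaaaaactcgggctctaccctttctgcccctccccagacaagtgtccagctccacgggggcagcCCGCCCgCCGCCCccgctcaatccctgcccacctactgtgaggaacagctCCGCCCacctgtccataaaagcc
Col10a1, chr10:34389831-34389980, plus strand: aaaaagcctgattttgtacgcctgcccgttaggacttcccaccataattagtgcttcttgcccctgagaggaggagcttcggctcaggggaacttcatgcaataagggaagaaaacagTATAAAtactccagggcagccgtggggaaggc
Col11a1, chr3:114030390-114030539, plus strand: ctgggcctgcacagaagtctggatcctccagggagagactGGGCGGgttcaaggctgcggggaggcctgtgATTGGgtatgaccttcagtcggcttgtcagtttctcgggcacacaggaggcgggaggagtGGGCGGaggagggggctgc
Col11a2, chr17:34038988-34039137, plus strand: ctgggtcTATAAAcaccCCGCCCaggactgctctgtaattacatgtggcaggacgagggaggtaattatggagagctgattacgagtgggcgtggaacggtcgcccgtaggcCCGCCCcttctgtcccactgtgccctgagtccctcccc
Col6a5, chr9:105960644-105960793, minus strand: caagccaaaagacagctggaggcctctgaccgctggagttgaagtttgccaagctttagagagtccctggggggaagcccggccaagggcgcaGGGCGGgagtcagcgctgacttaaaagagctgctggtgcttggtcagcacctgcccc

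The promoters of the lower genes did not share 1 of these motifs. A CCAAT box, whose binding factor is known to activate the type I collagen genes, stood before Col1a2 and Col11a1. A TATA box lay 32 bases before the start of Col10a1 and 143 bases before that of Col11a2. GC boxes lay before Col8a1, Col11a1 and Col11a2, and also before Col6a5, the gene that was higher. Over the 35 collagen genes with an entry, 8 had a CCAAT box, 4 a TATA box and 19 a GC box, which is 22.9%, 11.4% and 54.3%. Over all 32851 promoter windows of the same length the shares were 24.5%, 7.57% and 28.6%. These units are unlike, since a collagen gene was counted if any of its windows matched. Col9a1, Col6a2 and Col18a1 had more than 1 window, which can raise the collagen shares. A match describes letters in this window only.

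The values are log2 signals. As a background level, the median over 32 genes typical of organs such as liver and testis was taken, which was 4.88 after papain and 4.81 after PBS. The 95 percentile of these genes was 7.0, a value raised by Odf1 and Lhb, which read 10.91 and 7.83 after PBS. In all, 42 collagen genes were above background level in both arrays, and 2, Col6a4 and Col19a1, in 1 array. Only 14 had both signals at or above 7.0, and the size of a ratio is uncertain for the rest. For genes with several rows on the array, the SD of 1 row's log2 ratio was 0.32, which measures probe error and not the spread between animals. The ratio was below 0 by more than this SD for 15 collagen genes and above 0 by more for 2, which is 34.1% and 4.55%, against 17.6% and 14.9% of all named genes.

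**Figure D1:**
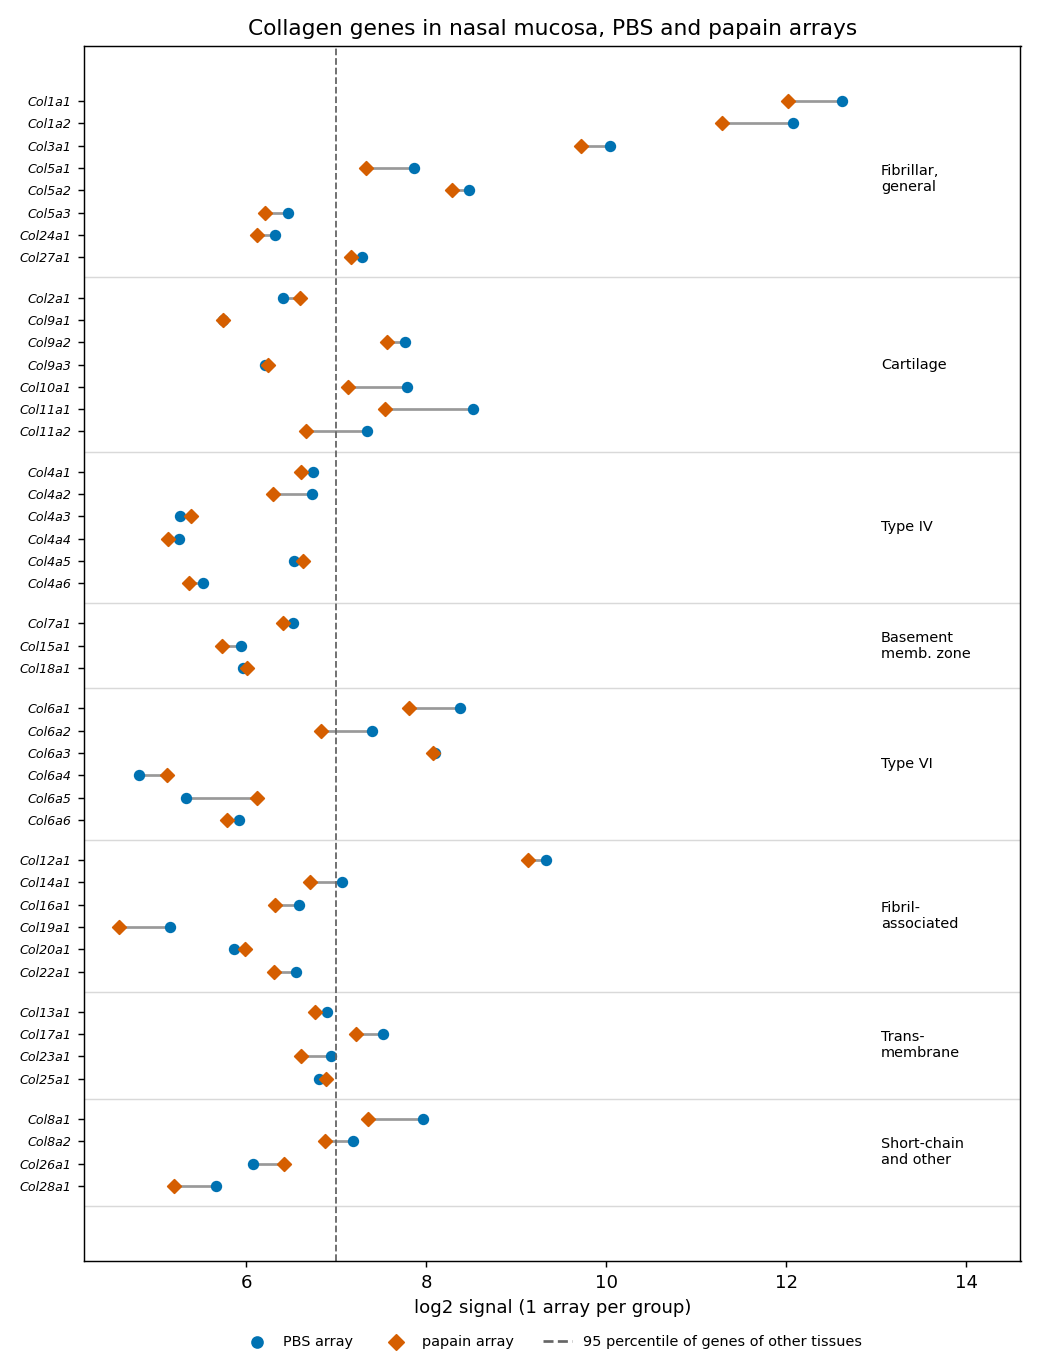
Log2 signal of each of the 44 collagen genes in the PBS array (circles) and the papain array (diamonds), 1 array per group, grouped by class, with a dashed line at 7.0, the 95 percentile of genes of other tissues. The papain symbol lies to the left of the PBS symbol for 34 genes, and the gap is widest for Col11a1, at 7.55 against 8.52.

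Type I collagen, the main fibre of skin, bone and mucosal connective tissue, was lower in the papain array in both of its chains. Col1a1 read 12.01 after papain and 12.62 after PBS, a log2 ratio of -0.60. Col1a2 read 11.29 after papain and 12.07 after PBS, a log2 ratio of -0.78. The PBS signal was 1.52-fold and 1.72-fold that of papain for these chains, which pair in the same triple helix. A second array row of Col1a2 read 9.64 after papain and 10.18 after PBS, a log2 ratio of -0.54, in the same direction and just short of 1.5-fold. In bulk RNA, fewer cells of a type and less RNA per cell cannot be told apart.

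None of the other 6 fibrillar collagens of general connective tissue reached 1.5-fold, and 4 of them, Col5a2, Col5a3, Col24a1 and Col27a1, had ratios smaller in size than the probe error of 0.32. Col3a1, the fibrillar collagen of extensible tissue and vessel walls, read 9.72 after papain and 10.04 after PBS. Col5a1, which nucleates type I fibrils, read 7.33 against 7.87, a log2 ratio of -0.54. A second row of Col5a1 was near background level at 4.91 after papain and 4.98 after PBS, and its ratio of -0.07 did not share the size of the first. Its partner chains differed less, with Col5a2 at 8.29 against 8.48 and Col5a3 at 6.21 against 6.47. Col24a1, a fibrillar collagen of developing bone, read 6.12 against 6.32, and Col27a1, of developing cartilage, 7.17 against 7.29. Both were counted in this class, and Col27a1 was not counted with the cartilage class below. All 8 genes of this class had ratios below 0, as deposited and under the 4 other scalings or row choices, with a median of -0.29 and a range from -0.78 to -0.12.

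**Figure D2:**
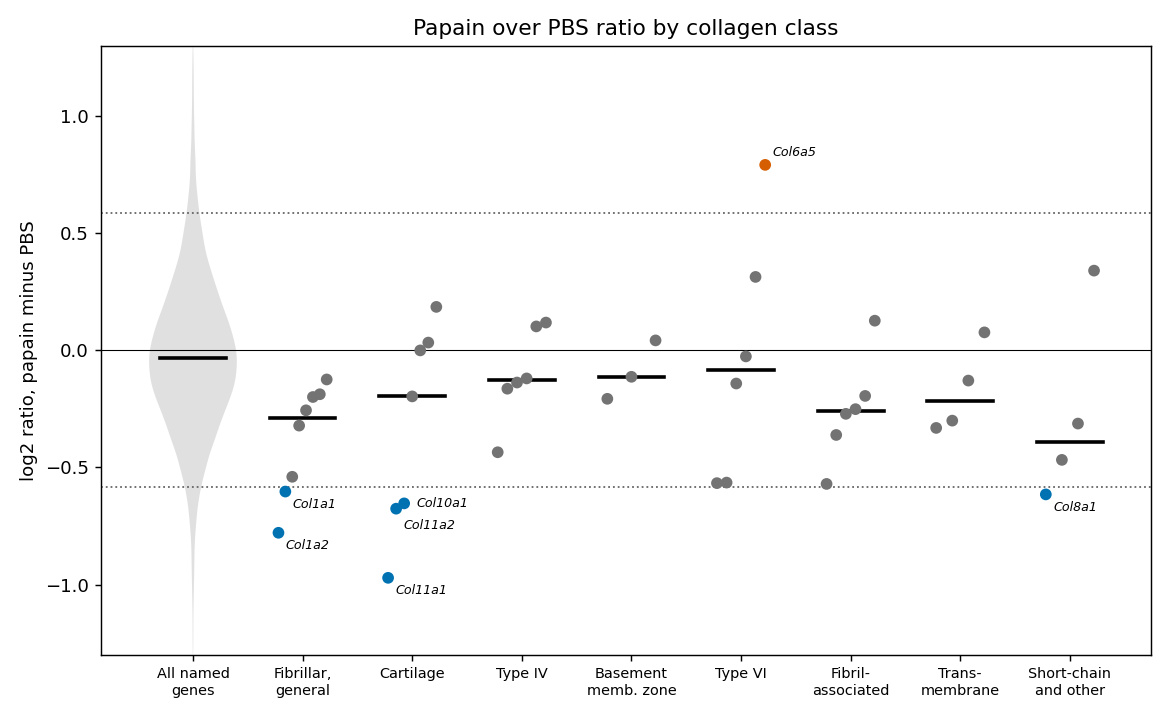
Log2 ratio of papain to PBS for each collagen gene by class (points), with class medians (bars), the spread of all named genes in grey and dotted lines at 1.5-fold, past which points are blue (lower) or orange (higher); 327 named genes with a ratio of 1.3 or more in size lie outside the plot. All 8 general fibrillar genes lie below 0, and the cartilage class runs from -0.97 for Col11a1 to 0.19 for Col2a1.

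The ratios of the cartilage collagens differed by type, although several of these genes had signals under 7.0. Col11a1, a chain of the minor fibrillar collagen that lies in the core of cartilage fibrils and is also made in bone, had the lowest ratio of all collagen genes. It read 7.55 after papain and 8.52 after PBS, a log2 ratio of -0.97 or a PBS signal 1.96-fold higher, and only 0.857% of named genes had a ratio at or below this one. Col11a2, its partner chain, read 6.66 against 7.34, a log2 ratio of -0.68. Col10a1, the network collagen of hypertrophic chondrocytes in cartilage that turns into bone, read 7.13 against 7.79, a log2 ratio of -0.65.

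None of the type II and IX genes of the same class reached 1.5-fold. Col2a1, the main fibrillar collagen of hyaline cartilage, read 6.60 after papain and 6.41 after PBS, a log2 ratio of 0.19. Both Col2a1 signals were under 7.0, so the size of that ratio is uncertain. Type IX collagen decorates the surface of type II fibrils, and its chains Col9a1 and Col9a3 were near equal at signals under 6.29. Col9a1 read 5.75 in each array and Col9a3 read 6.24 after papain and 6.21 after PBS. Col9a2, the type IX chain with both signals above 7.0, read 7.56 against 7.76, a log2 ratio of -0.20 like the median of all collagen genes. The class median was -0.20, between a group of 3 genes from -0.97 to -0.65 and a group of 4 from -0.20 to 0.19. Among the 5 members whose higher signal reached the median signal of all named genes, 6.29, the median was -0.65, since Col9a1 and Col9a3 drop out.

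Type VI collagen, which forms beaded filaments around cells, held the widest range of any type, 1.36 between its lowest and highest log2 ratio. Col6a1 read 7.81 after papain and 8.37 after PBS, and Col6a2 read 6.83 against 7.40. Their log2 ratios were -0.56 and -0.57, a difference of 0.0023 between genes that are neighbours on chromosome 10. The third chain of the classical trimer, Col6a3, lies on another chromosome and was nearly equal at 8.08 against 8.10. Its ratio of -0.03 turned positive after quantile normalization and after loess, to at most 0.07.

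A second Col6a1 row read 5.20 after papain and 6.07 after PBS, a log2 ratio of -0.87. A row annotated to Col6a1 together with 3 other symbols read 8.44 against 8.75. Both lay in the same direction as the row used. The chains that can replace Col6a3 are encoded side by side on chromosome 9 and did not share a direction. Col6a5, reported in skin and other epithelia-bearing organs, read 6.12 after papain and 5.33 after PBS, a log2 ratio of 0.79 that 97.0% of named genes did not exceed. Col6a4 read 5.12 against 4.81, the latter just under background level, and Col6a6 read 5.78 against 5.92. All 3 of these genes had signals under 7.0 in both arrays, so the size of the Col6a5 ratio is uncertain.

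None of the 6 basement membrane chains of type IV reached 1.5-fold, and their median log2 ratio was -0.13, with 4 below 0 and 2 above. Col4a1, which with Col4a2 makes the network found in all basement membranes, read 6.61 after papain and 6.75 after PBS. Col4a2 read 6.29 against 6.73, a log2 ratio of -0.44, the lowest of this type. The chains of restricted basement membranes were near equality, with Col4a3 at 5.39 against 5.27, Col4a4 at 5.13 against 5.25, Col4a5 at 6.63 against 6.53 and Col4a6 at 5.36 against 5.53. Type IV genes lie in neighbouring pairs. The ratios of paired genes differed by 0.30 for Col4a1 and Col4a2, 0.24 for Col4a3 and Col4a4, and 0.27 for Col4a5 and Col4a6. The probe error of 0.32 is that of a single ratio and does not measure a difference of 2 ratios. All 12 signals of these genes were under 7.0.

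The other collagens of the basement membrane zone were within 1.5-fold as well. Col7a1, the anchoring fibril that ties epithelium to stroma, read 6.41 after papain and 6.52 after PBS. Col15a1 and Col18a1, proteoglycan collagens on the stromal side, read 5.73 against 5.94 and 6.01 against 5.97. The ratio of Col18a1, 0.04, changed sign after quantile normalization, to -0.0043. Col17a1, the transmembrane collagen of hemidesmosomes in basal epithelial cells, read 7.23 against 7.53, a log2 ratio of -0.30.

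The remaining transmembrane collagens showed small ratios. Col13a1 of cell adhesion sites read 6.77 after papain and 6.90 after PBS, Col23a1 read 6.61 against 6.94, and Col25a1, a neuronal collagen needed for motor innervation, read 6.89 against 6.81. The class median was -0.21, with 3 of 4 genes below 0.

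Fibril-associated collagens, which sit on the surface of larger fibrils, had a median of -0.26 with 5 of 6 below 0 and none past 1.5-fold. Col12a1, found in dense connective tissue and periosteum, read 9.13 after papain and 9.33 after PBS. Col14a1, its close relative, read 6.71 against 7.07, and Col16a1 read 6.32 against 6.59. Col22a1 of tissue junctions read 6.31 against 6.56, and Col20a1 read 5.99 against 5.86. Col19a1 read 4.59 against 5.16, a log2 ratio of -0.57 with the papain signal under background level, so that the size of its ratio is uncertain. Col21a1 had no row of its own and was not analysed here.

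The short-chain collagens make hexagonal networks, as in the membrane under the corneal endothelium and around vessels. Col8a1 read 7.35 after papain and 7.97 after PBS, a log2 ratio of -0.62, and Col8a2 read 6.87 against 7.19. The ratio of Col8a2, -0.31, was within 1.5-fold and no larger than the probe error. Of the collagens outside these classes, Col28a1, a collagen of peripheral nerve, read 5.20 against 5.67. Col26a1 went the other way, at 6.42 after papain and 6.08 after PBS.

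Several genes lay next to the 1.5-fold line, which is 0.58 on the log2 scale. Just past it were Col1a1 at -0.60 and Col8a1 at -0.62, and just short of it were Col6a1 and Col6a2, Col19a1 at -0.57 and Col5a1 at -0.54. Col8a1 and Col10a1 lay short of the line after quantile normalization and after loess, while Col1a1, Col1a2, Col11a1 and Col11a2 stayed past it in those settings and in both others. Of these, Col1a1 at -0.5869 after centring and Col11a2 at -0.5874 after loess were barely past the line of 0.585.

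The collagen ratios were also grouped by signal. The 8 collagen genes with a mean log2 signal of 8 or more all had ratios below 0 in the deposited values, Col6a3 turning above 0 after quantile normalization and loess, with a median of -0.44 against -0.08 for the 4213 named genes in that range, and 3 were at least 1.5-fold lower where 2.68% of those named genes were. The 8 genes with a mean between 7.0 and 8 were also all below 0, with a median of -0.43 against -0.13. Of the 28 genes with a mean under 7.0, 18 were below 0, with a median of -0.13 against 0.02. Over the 44 genes the ratio had a Pearson correlation of -0.48 with mean signal, against -0.13 over all named genes, a description of genes that share the same pair of arrays.

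**Figure D3:**
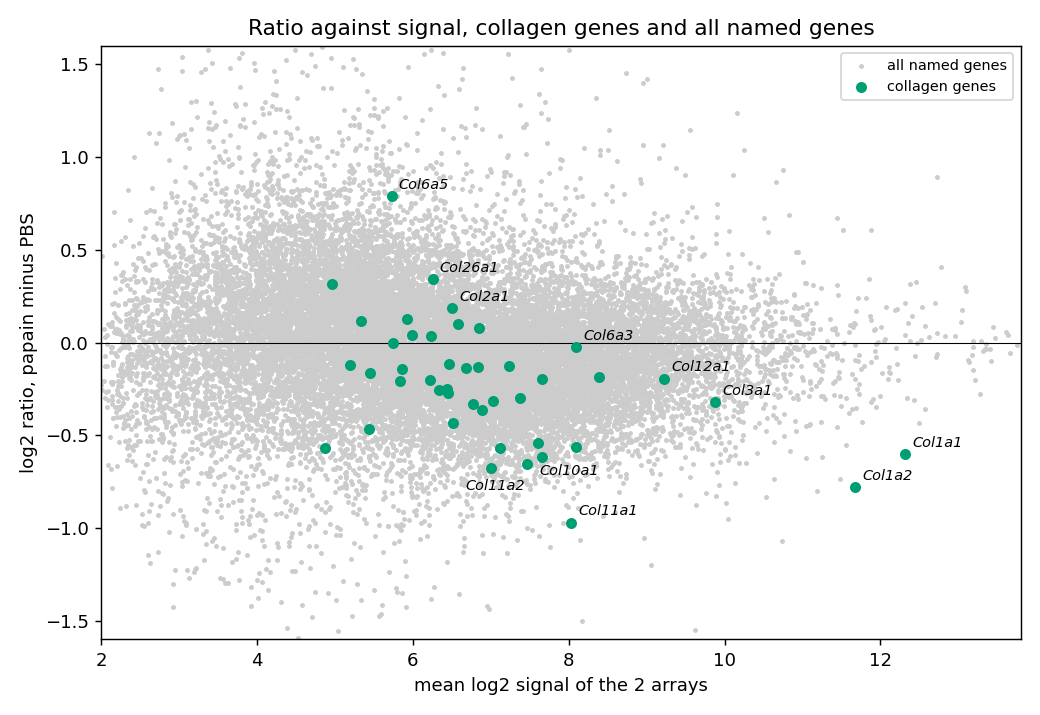
Log2 ratio of papain to PBS against the mean log2 signal of both arrays for all named genes (grey) and the 44 collagen genes (green); 238 named genes with a ratio over 1.6 in size are outside the plot. The 16 collagen genes with a mean signal of 7.0 or more all lie below 0 in these deposited values, although Col6a3, at -0.03, turns above 0 after quantile normalization and loess.

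The counts for the pathway lists below stand against 54.4% of all named genes with a ratio below 0. Of all named genes, 4.34% were at least 1.5-fold lower and 5.38% at least 1.5-fold higher. Of the 80 measured pathway genes, 70 had a higher signal of at least 6.29, where the median log2 ratio of named genes was -0.10. Of 20 measured genes for modification, folding and secretion, 16 had ratios below 0, 5 of them at least 1.5-fold lower, and 1 was at least 1.5-fold higher, with a median log2 ratio of -0.32. After loess 2 were lower by that much, with a median of -0.23. Serpinh1, the collagen chaperone of the endoplasmic reticulum, read 7.20 after papain and 7.91 after PBS. Crtap and P3h1, partners in prolyl 3-hydroxylation of the collagen helix, read 8.24 against 8.89 and 6.27 against 6.90. P4ha3, a subunit of prolyl 4-hydroxylase, read 5.79 against 6.57, and P3h3, picked out once its values were known, 6.79 against 7.41. The gene that was higher was Mia3, which helps load collagen into transport vesicles, at 9.46 against 8.87, likewise picked out once its values were known.

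Extracellular processing genes had a median of -0.39, with 9 of 12 below 0, 3 of them at least 1.5-fold lower, and none at least 1.5-fold higher. Bmp1, the protease that removes the carboxyl propeptide, read 7.13 after papain and 8.02 after PBS, a log2 ratio of -0.89. Lox, the oxidase that crosslinks collagen, read 8.25 against 9.05. Pcolce2, an enhancer of the propeptide protease, read 8.21 against 8.88, and Loxl3, another crosslinking oxidase, 6.26 against 6.72, within 1.5-fold.

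All 10 small leucine-rich proteoglycans, which bind collagen fibrils and set their diameter, had ratios below 0, also under the 4 other scalings or row choices, with a median of -0.33 and 3 at least 1.5-fold lower. Fmod read 7.55 after papain and 8.44 after PBS. Omd, abundant in bone matrix, read 9.76 against 10.51, and Bgn read 11.12 against 11.85. Prelp, within 1.5-fold, read 8.21 against 8.70.

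The partners of collagen in the basement membrane had a median of -0.14, and 2 of 14 were at least 1.5-fold lower with none higher, against 1 after loess. Nid1, which links laminin to type IV collagen, read 6.76 after papain and 7.69 after PBS, a log2 ratio of -0.93. Lamc1, the laminin gamma chain common to most basement membranes, read 7.44 against 8.12. Hspg2, which encodes perlecan, read 7.45 against 7.99, and Nid2 read 6.52 against 6.90, both within 1.5-fold.

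Collagen receptors had ratios in both directions. Their median was -0.40, with 2 of 10 at least 1.5-fold lower and 1, Gp6, higher from a PBS signal of 4.36 under background level. Itga2, an integrin subunit of epithelium and platelets, read 6.29 after papain and 7.03 after PBS, and Adgrg1, an adhesion receptor for type III collagen, 8.72 against 9.42. Itga11, an integrin subunit of fibroblasts, read 6.93 against 7.42, while Itga1, of smooth muscle and endothelium among others, went the other way at 7.59 against 7.16.

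Genes of transforming growth factor beta, the main inducer of collagen synthesis in fibroblasts, had a median of -0.30 over ligands, receptors and targets, with 13 of 14 below 0. The ligand Tgfb3 read 7.05 after papain and 7.64 after PBS. The target Tnc, a matrix glycoprotein, read 8.82 against 9.45, and these were the 2 members at least 1.5-fold lower. That count was 1 after quantile normalization or centring and 0 after loess. The coreceptor Tgfbr3 read 7.21 against 7.76 and the target Fn1 read 9.36 against 9.90, both within 1.5-fold. The receptor Tgfbr1 went the other way at 8.91 against 8.57, also within 1.5-fold. Its ratio was above 0 under the 4 other scalings or row choices as well. Over the 6 lists of collagen pathway genes together, 17 of 80 measured genes were at least 1.5-fold lower and 2 higher, or 21.2% and 2.5%, against 4.34% and 5.38% of all named genes, with a median of -0.33. After loess 11 were lower by that much. The 6 lists were chosen with earlier results of these data known, so the contrast with all named genes is not a test.

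**Figure D4:**
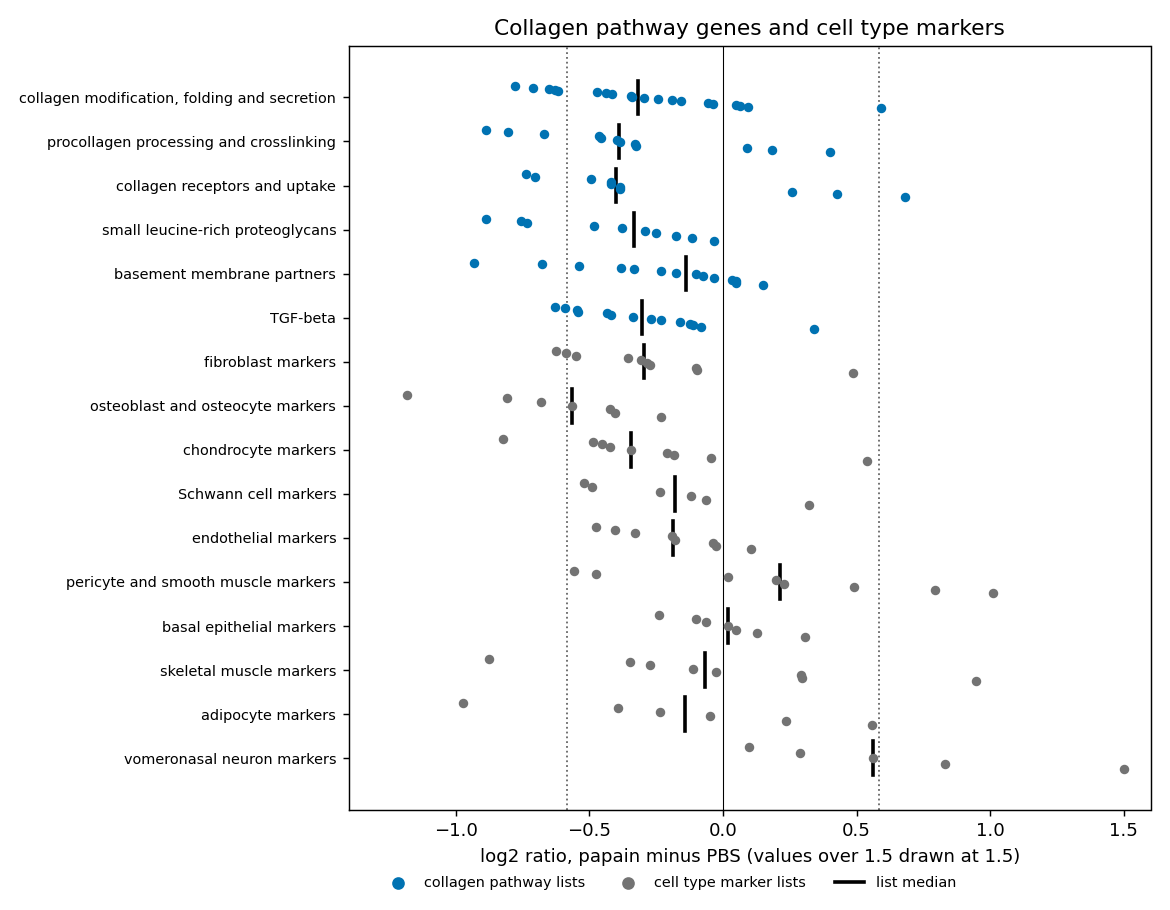
Log2 ratio of papain to PBS for the genes of 6 collagen pathway lists (blue) and 10 cell type marker lists (grey), with list medians as bars and dotted lines at 1.5-fold; Calr4, at 3.35, is drawn at 1.5. The medians of all 6 pathway lists lie below 0, and that of osteoblast and osteocyte markers, -0.57, lies lowest.

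Markers of cells that make collagen were listed as well, and their part in the collagen ratios was not tested. The counts of all marker lists stand against 54.4% of all named genes with a ratio below 0, and 10113 of 22180 above 0. Of all named genes, 4.34% were at least 1.5-fold lower and 5.38% at least 1.5-fold higher. The marker lists were chosen with earlier results of these data known. All 7 measured markers of osteoblasts and osteocytes had ratios below 0, 3 of them at least 1.5-fold lower, with a median of -0.57, and their summed linear signal was 2636 after papain and 3716 after PBS. Ifitm5, a bone membrane protein, read 5.85 after papain and 7.03 after PBS, a log2 ratio of -1.18, and Sp7, the transcription factor of osteoblasts, 7.70 against 8.51. Bglap, which encodes osteocalcin, read 6.00 against 6.68, and Dmp1, of osteocytes, 8.09 against 8.65. Ibsp, the brightest of these markers at 10.70 against 11.12, made up most of the summed signal in each array. Of 10 fibroblast markers, 9 had ratios below 0, 2 of them at least 1.5-fold lower, with a median of -0.30 and a sum of 1610 against 2099. None reached 1.5-fold after quantile normalization or loess. Pdgfrb, the growth factor receptor of mesenchymal cells, read 7.54 against 8.16, Fap 8.04 against 8.63, Mfap4 7.46 against 8.01 and Pdgfra 8.54 against 8.90. The remaining one, Pi16, went the other way at 5.78 against 5.30, with both signals under 6.29.

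Of 9 chondrocyte markers, 8 had ratios below 0 and 1 of them, Acan, was at least 1.5-fold lower, with a median of -0.34 and a sum of 788 against 982. Acan, the main proteoglycan of cartilage, read 6.14 after papain and 6.96 after PBS. Comp read 6.48 against 6.96, Cnmd 6.69 against 7.14 and Sox9, the transcription factor of chondrocytes, 8.27 against 8.46. The remaining one, Matn1, a matrix protein of hyaline cartilage, read 5.14 against 4.61, the latter under background level.

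Endothelial markers had a median of -0.19, with 7 of 8 below 0, and Schwann cell markers a median of -0.18, with 5 of 6 below 0. None of either list reached 1.5-fold, and the differences between marker lists were not tested. The sums were 787 against 908 and 1458 against 1591. Mal, at 10.12 after papain and 10.18 after PBS, made up most of the Schwann cell sum in each array. Cdh5, of endothelial junctions, read 7.29 after papain and 7.61 after PBS, with Emcn at 7.34 against 7.53, Pecam1 at 7.13 against 7.31 and Kdr at 6.79 against 6.83. Among Schwann cell genes Pmp22 read 6.62 against 7.14, Sox10 6.07 against 6.56, Cnp 6.20 against 6.44 and Mbp 6.23 against 6.35.

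Basal epithelial markers were close to equality, with a median of 0.02 and a sum of 3046 against 3119. Krt14 read 8.35 against 8.59, Krt15 10.49 against 10.55, Itgb4 7.76 against 7.86 and Itga6 8.78 against 8.65, all well above background level in this labelled mucosa. The median was -0.02 among the members at or above 6.29. Adipocyte markers had a median of -0.14 and a sum of 199 against 221, with none at 6.29 or more and 1, Fabp4, at least 1.5-fold lower at 4.91 against 5.88. Skeletal muscle markers had -0.07 and a sum of 335 against 319, and Tnnc2 read 6.56 against 6.58. In that list Mylpf was at least 1.5-fold lower, at 3.10 against 3.97 and under background level in both arrays, and Ckm at least 1.5-fold higher, at 5.91 against 4.97, a count of 1 that was 0 with rows of a gene averaged. Fabp4, Mylpf and Ckm were picked out once their values were known.

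Pericyte and smooth muscle markers, from mesenchymal cells of vessel and gland walls, had a median of 0.21 and a sum of 5261 after papain against 4248 after PBS, with 2 of 8 at least 1.5-fold higher and none lower. Myh11, the smooth muscle myosin, read 8.90 against 7.89, and Cnn1, a contractile protein, 8.03 against 7.24. Rgs5, of pericytes, read 11.16 against 10.67, while Cspg4 read 5.83 against 6.39 and Notch3, picked out once its values were known, 6.80 against 7.27, both within 1.5-fold. Markers of vomeronasal sensory neurons, which lie in an organ at the base of the nasal septum, had a median of 0.56, with all 5 above 0 and 2 of them at least 1.5-fold higher, and a sum of 3148 against 2404. Calr4 read 7.94 against 4.59, Trpc2 7.04 against 6.21, Gnao1 9.52 against 8.96 and Meis2 9.68 against 9.40.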

How the data were processed

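The authors deposited log2 signals per transcript cluster of the Affymetrix Mouse Gene 2.0 ST array, a scale read from the values. The submitters' processing notes list Transcriptome Analysis Console 4.0. How signals were background-corrected, summarised and normalized is not given in the sources used here, so a ratio may be relative to most other rows. The array medians were 5.70 for papain and 5.64 for PBS, over 41345 rows.

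Of these rows, 23521 had 1 gene symbol in the platform annotation, 1814 several and 16010 none. Rows with 1 symbol gave 22180 genes, and the IDs of all 44 collagen genes matched RefSeq under the same symbol. The log2 ratio was papain minus PBS, and folds are 2 to that power. Collagen classes, pathway lists and marker lists were chosen with earlier results of these data known. All collagen genes are named, and of each pathway and marker list up to 4 members with the ratio largest in size whose higher signal reached 6.29, the median signal of named genes. Genes picked out once their values were known are marked, and Gp6, Matn1, Ibsp, Mal, Pi16 and Tgfbr1 are also of that kind. The counting and scaling steps were run on simulated data with differences larger than that of any collagen gene. That run does not bear on calls near 1.5-fold. Alternatives were quantile normalization, centring, loess with a span of 0.3, averaged rows, genes at or above 6.29 only and a 2-fold rule. Python 3.11.15, numpy 2.4.6, pandas 2.3.3 and statsmodels 0.14.6 were used.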

Additional observations from a re-analysis of the deposited data

How the results depend on the processing

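Medians of all collagen genes and of the 8 classes kept their sign in every setting run. For all collagen genes the median log2 ratio ran from -0.23 after quantile normalization to -0.18 after centring, and was -0.18 without types I, X, XI and XXIV, a choice made after seeing the data. Keeping only the 31 collagen genes at or above 6.29 moved it to -0.27, moved the cartilage median to -0.65 and the type VI median to -0.56, and left 6 genes at least 1.5-fold lower and 0 higher, since Col6a5 is under 6.29. At 2-fold the counts were 0 lower and 0 higher. The count of lower genes was 5 after quantile normalization and after loess, 4 of them among the first 6, with Col19a1 added, and 7 with averaged rows, with Col6a1 added. The median of basal epithelial markers turned from 0.02 to -0.022 at or above 6.29. Col5a1 had -0.07 in its second row against -0.54. No scaling moved the median of all named genes by more than 0.03. For the named genes at or above 6.29 that median moved more. It was -0.10 as deposited, -0.05 after quantile normalization and -0.02 after loess. The causes were not tested, except that the genes at or above 6.29 are fewer by construction. No paired analysis was possible because each group was 1 array. With 1 array per group, neither the spread between animals nor that between arrays can be given.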

Other observations

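Proteins outside the Col family that carry a collagen domain were listed after the collagen ratios had been seen and before their own values were. Of 29 measured genes, 15 had ratios below 0 and 14 above, with a median log2 ratio of -0.02 and 1 gene at least 1.5-fold lower, where 4.34% of all named genes were. Nothing is read from that count, and the genes named here were picked out once their values were known. The gene past 1.5-fold was Cthrc1, a secreted protein of collagen-producing fibroblasts and osteoblasts, at 6.14 after papain and 7.06 after PBS. Scara3 and Colec12, scavenger receptors, read 8.10 against 8.65 and 8.40 against 8.81, and Gldn, an adhesion protein of Schwann cells at nodes, read 6.79 against 7.36. Chains of complement C1q, made by macrophages, did not share a direction, with C1qa at 7.33 against 7.09, C1qb at 8.40 against 8.64 and C1qc at 6.99 against 6.83. Sftpd, a collagenous lectin of airway secretions, read 9.71 in both arrays.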
